A study of Mus musculus with 71 samples.

Results

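The cytosolic ribosomal protein genes encode the protein parts of the small and large subunits of the ribosome that translates nuclear messages. Their chromatin loops were read from a list of H3K27ac HiChIP loops in mouse synovial sarcoma. Members were the protein-coding genes of GENCODE vM21 whose symbol is Rpl or Rps followed by a number, together with Rpsa, Rplp0, Rplp1 and Rplp2, and without the Rps6k kinases. The rule took 83 of 21938 protein-coding genes, of which 32 belong to the small subunit and 51 to the large subunit. A loop was counted for a gene when one of its anchors lay within 2 kb of any transcription start site (TSS) of that gene. This gave 505 of the 24244 loops in the list.

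The loops came from 2 tumors of hSS2 mice and were given as a single merged list. In hSS2 mice the human fusion SS18::SSX2 is carried at Rosa26 behind a floxed stop, and it is expressed once Cre removes the stop. Both tumors were started by TATCre protein injected in the hindlimb at day 8 of life, so recombination was not limited to a cell type by any promoter. In HiChIP, ligated pairs of DNA fragments that were close in the nucleus are pulled down with an antibody. The antibody here was against H3K27ac, a mark of active promoters and enhancers, so the contacts of marked elements are enriched. Each loop carries a count of paired-end tags and the false discovery rate (FDR) given to it by the loop caller. The list does not label loops or tags by tumor. For this reason no value below has a replicate error, and no comparison between tumors or conditions was made. Intervals of shares are Wilson 95% intervals and cover counting error only. The tumors were bulk tissue, so contacts of tumor cells and of other cells cannot be told apart.

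The depth was 41574 tags over all loops, and 1057 of them (2.54%) lay on ribosomal protein loops. The list consists of 2 stretches that are each sorted by position. The first holds 13683 loops and 28657 tags, and the second holds 10561 loops and 12917 tags. Neither was assigned to a tumor, since the sources used here do not say what the stretches are. The caller FDR for a similar tag count and distance differed between them. For example, a single-tag loop of Rpl10a over 472.1 kb had an FDR of 0.0357 in the first and 0.0118 in the second. An FDR cutoff therefore does not mean the same in both stretches. Promoters that mark synovial sarcoma were looped, with summed tags of 39 for Sox2, 22 for Twist1, 4 for Tle1 and 3 for Sox9, and Bcl2 had none. The macrophage markers Adgre1, Cd68, Csf1r and Ptprc had no loop, the endothelial marker Cdh5 had 3 tags with none at Kdr, Pecam1 or Tie1, and of 5 skeletal muscle markers only Ckm had a loop, with 2 tags. An absent loop does not show that a cell type was absent.

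Ribosomal protein genes are among the most highly expressed genes of growing cells, and their products are needed in equal amounts. The genes are scattered over the genome rather than clustered. Many have a short TATA-poor promoter and begin transcription inside a run of pyrimidines, which in the message forms the 5′ terminal oligopyrimidine (TOP) element through which mTOR signaling and LARP1 set translation. Several host small nucleolar RNAs (snoRNAs) in their introns. Mutations of some of them cause Diamond-Blackfan anemia.

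The promoters with the most tags are shown first, because some of them carry a long pyrimidine run at the annotated start and others do not. RefSeq promoter entries (GRCm38.p6) were found for 63 of the 83 genes. Each line gives the 40 bases before and the 20 bases from the RefSeq start, read along the gene. Capitals mark the longest run of C and T where it reaches 8 bases, and a line without capitals has no run of that length.
Rpl18 (chr7:45718031-45718090, plus strand): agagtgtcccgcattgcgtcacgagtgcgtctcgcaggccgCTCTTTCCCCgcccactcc
Rpl13a (chr7:45128726-45128785, minus strand): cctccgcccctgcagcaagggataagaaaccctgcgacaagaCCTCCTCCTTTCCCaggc
Rpl7a (chr2:26910767-26910826, plus strand): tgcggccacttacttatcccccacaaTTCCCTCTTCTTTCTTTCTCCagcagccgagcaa
Rps18 (chr17:33955646-33955705, minus strand): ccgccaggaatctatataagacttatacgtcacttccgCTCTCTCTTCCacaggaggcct
Rpl19 (chr11:98026670-98026729, plus strand): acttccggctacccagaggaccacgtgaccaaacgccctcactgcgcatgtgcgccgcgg
Rpl10a (chr17:28328431-28328490, plus strand): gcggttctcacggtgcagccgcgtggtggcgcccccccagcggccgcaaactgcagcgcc
Rpl41 (chr10:128549149-128549208, minus strand): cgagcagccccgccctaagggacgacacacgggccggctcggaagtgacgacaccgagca
Rpl23 (chr11:97782420-97782479, minus strand): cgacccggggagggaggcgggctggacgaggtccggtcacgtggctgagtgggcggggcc
Rpl18, Rpl13a, Rpl7a and Rps18 carry a run near the start, of 10, 14, 21 and 11 bases. Rpl19, Rpl10a, Rpl41 and Rpl23 have no run of 8 in this window at the start that RefSeq gives, which does not show that a TOP element is absent, since shorter runs and other starts were not considered. Over all 63 entries, 32 (50.8%, 38.8 to 62.7) held a run of at least 8, against 23.6% of 16522 protein-coding promoters. Runs of at least 10 were found in 33.3% and 11.3%, and the median longest run was 8 and 6 bases. These shares describe the class and depend on the annotated start. The RefSeq start was also a GENCODE TSS for 22 of the 63 genes, and the median offset was 6 bases.

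**Figure D1:**
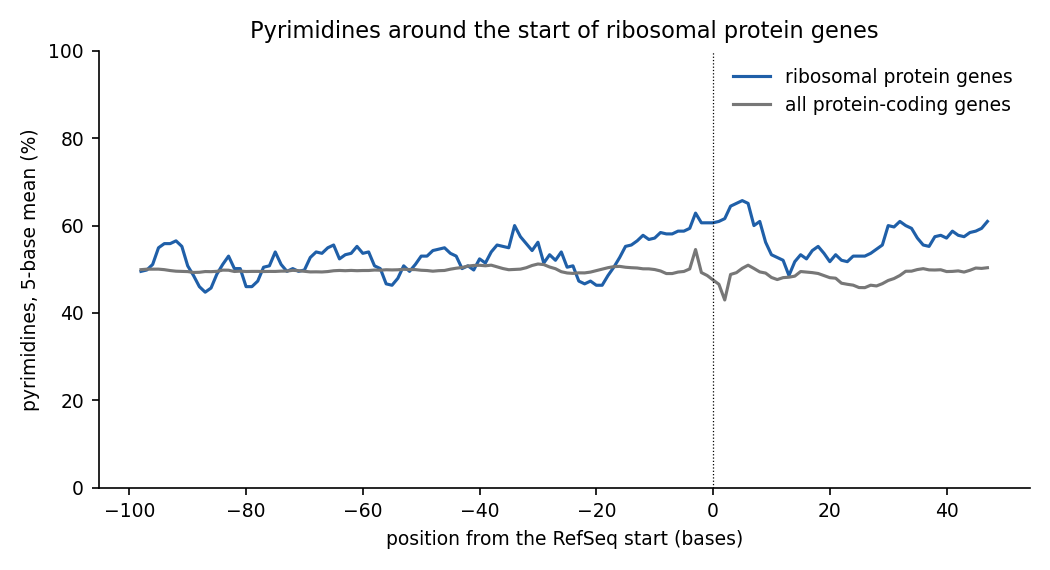
Share of C and T at each position from 100 bases before to 50 bases after the RefSeq start, as a 5-base mean in percent, for 63 ribosomal protein promoters and 16522 protein-coding promoters. The ribosomal protein line rises above the other just before the start and stays above it for the first bases of the transcript. At position 5, picked as the highest single value of the 63 genes, 76.2% of them and 51.9% of all genes have a pyrimidine. At position 4 the values are 61.9% and 47.1%, and at position -1 they are 73.0% and 69.9%. Single positions away from the start are also high, such as -32 with 71.4% and 50.7%.

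Short words were counted in the 300 bases of each entry, on both strands. The ETS core CCGGAAG, the sequence bound by ETS family factors such as GABP, was present in 25 of the 63 promoters (39.7%, 28.5 to 52.0) and in 12.3% of all promoters. The word TGACGT of the cyclic AMP response element was present in 12 promoters against 8.99% of all, the YY1 core AAGATGG in 14.3% against 6.43%, and the NRF1 core GCGCATG in 11.1% against 5.04%. The Sp/KLF box GGGGCGG was less frequent, in 22.2% and 32.2%, and the word TATAAA was found in 9.52% and 12.9%. The median GC content was 57% in both sets. The Rps18 promoter shows the words in place. Its 250 bases upstream of the start hold CCGGAAG at 2 places and the reverse complement of TGACGT near the start, all in capitals.
Rps18 upstream (chr17:33955666-33955915, minus strand): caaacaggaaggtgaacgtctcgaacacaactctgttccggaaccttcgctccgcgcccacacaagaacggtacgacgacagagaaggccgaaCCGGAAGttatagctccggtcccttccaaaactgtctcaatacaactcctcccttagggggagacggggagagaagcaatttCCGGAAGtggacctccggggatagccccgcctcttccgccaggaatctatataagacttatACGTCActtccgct
A match is a description of the letters and not of a bound factor.

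Of the 83 genes, 74 had at least 1 loop (89.2%, 80.7 to 94.2), against 45.8% of all protein-coding genes. A loop with at least 4 tags was found at 26 genes (31.3%, 22.4 to 41.9), against 8.51%. A loop with an FDR under 0.001 was found at 22 genes (26.5%, 18.2 to 36.9), against 11.2%. Loops in both stretches of the list were found at 44 genes (53.0%, 42.4 to 63.4), against 24.3%, while 24 genes had loops in the first stretch alone and 6 in the second alone. This counts any loop of a gene in each stretch and not the same contact. With identical anchor bounds, 2 anchor pairs of members were listed in both stretches. Contacts that recurred with other bounds are not among these. All 54 looped genes with a RefSeq entry had the RefSeq start inside one of their looped anchors. Looped genes were chosen by an anchor within 2 kb of a TSS, so this count says little about the assignment. It was not made for other genes. Rpl23a and Rpl36, whose scores change with RefSeq starts as given below, have no entry and are not among the 54. Ribosomal protein genes lay in gene-rich surroundings, with a median of 20 protein-coding genes within 500 kb against 15 over all protein-coding genes. The part of gene density in the looped share was not tested.

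The loop score of a gene, the sum of tags over its loops, had a median of 4 (quartiles 2 and 16.5) and a maximum of 78. Over all protein-coding genes the median was 0. Among looped genes alone the medians were 6 and 4. A score of at least 20 was reached by 18 ribosomal protein genes (21.7%) and by 4.81% of all protein-coding genes, and these same 18 were among the 1000 highest scores. At the other end, 9 genes had a score of 0 and 29 had a score of 1 to 3. Tags were concentrated, since the 10 genes with the highest scores held 502 of the 1057 tags (47.5%).

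**Figure D2:**
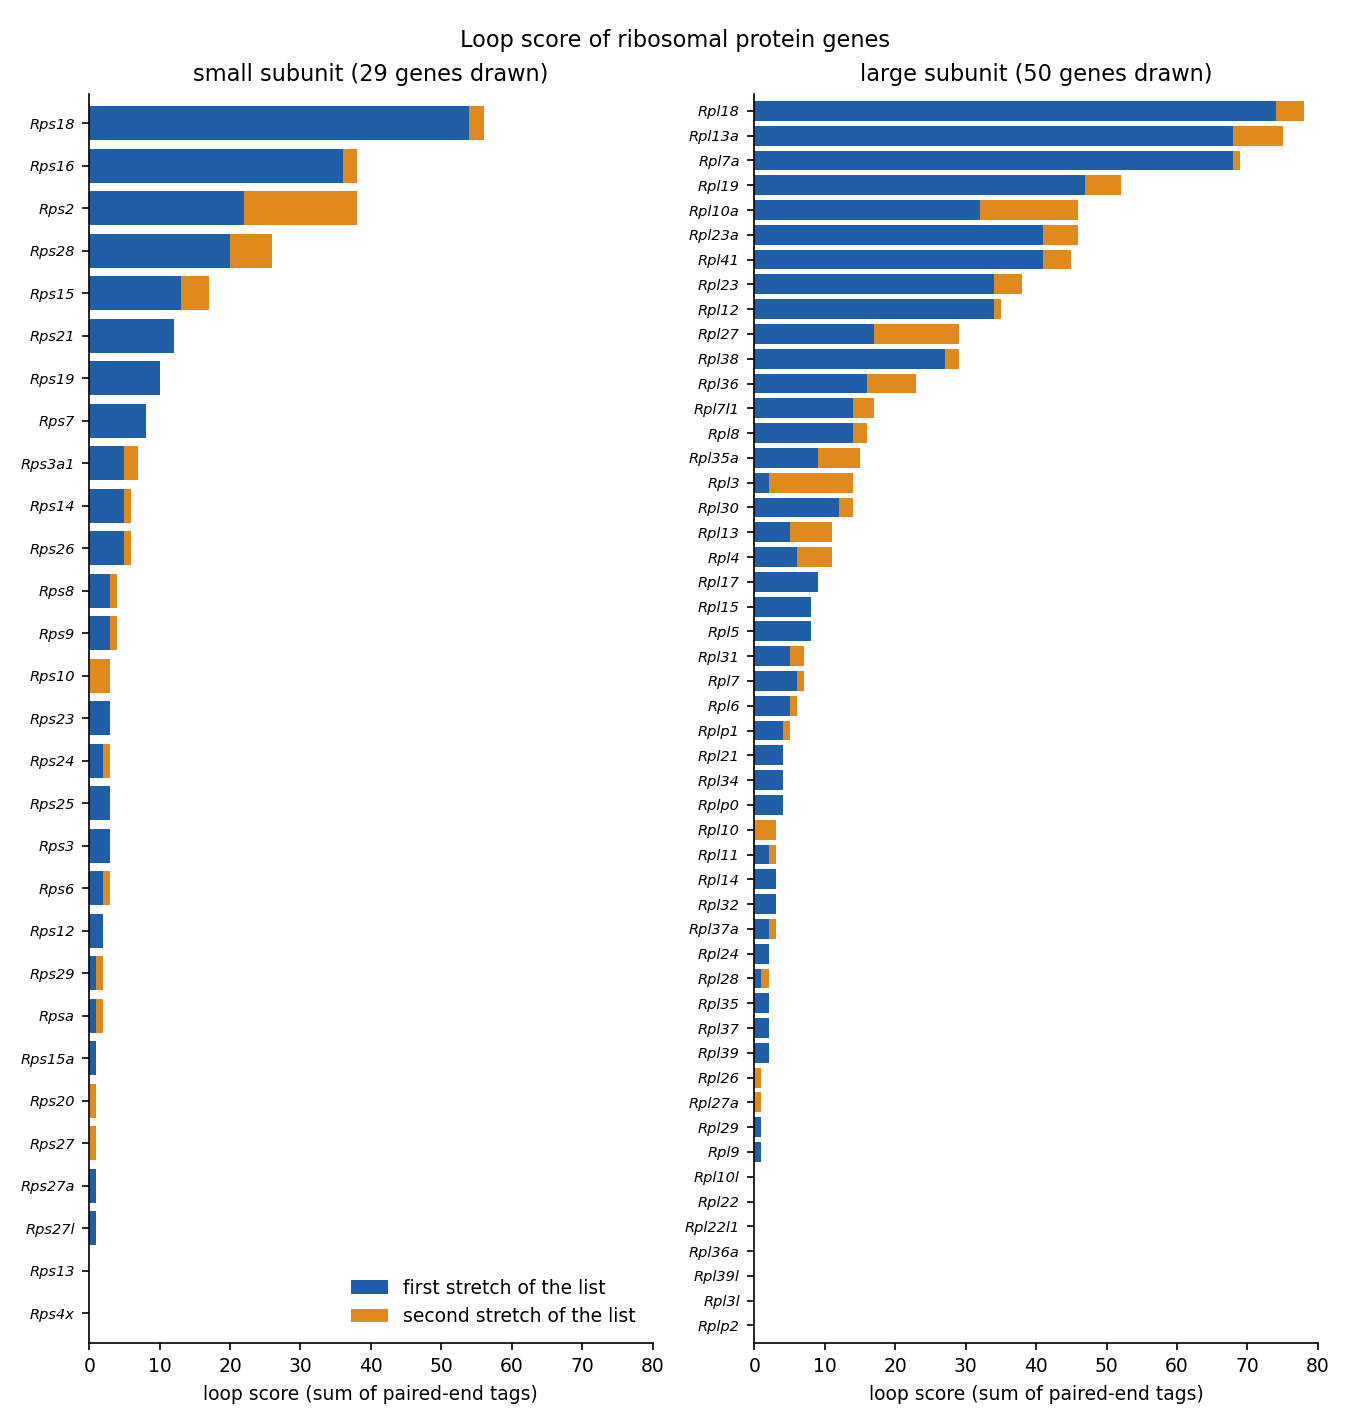
Loop score of 79 of the 83 ribosomal protein genes, as the sum of paired-end tags over its loops, with bars split by the stretch of the list that holds the tags. A few genes of each subunit stand far above the rest, with Rpl18 at 78, Rpl13a at 75, Rpl7a at 69 and Rps18 at 56, while 9 genes have no bar.

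Small subunit genes were looped in 30 of 32 cases with a median score of 3, and large subunit genes in 44 of 51 with a median of 6. Rps18 (ENSMUSG00000008668.15), a protein of the head of the small subunit, had 56 tags on 16 loops, of which 54 tags were in the first stretch. Both Rps16 and Rps2 had 38 tags, on 13 and 21 loops. Rps2 was more evenly divided than the others, with 22 tags in the first stretch and 16 in the second. Rps28 had 26 tags on 13 loops, and Rps15 had 17 on 14. Below these the scores fell quickly to 12 for Rps21, 10 for Rps19 and 8 for Rps7. Rps6, the substrate of the S6 kinases, had 3 tags. Rps3 had 3 tags on 3 loops, and Rpsa, which is also known as the laminin receptor, had 2.

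In the large subunit, Rpl18 (ENSMUSG00000059070.16) had 78 tags on 31 loops, 74 of them in the first stretch. Rpl13a had 75 tags on 32 loops, but this rests on the choice of start, and counted only at RefSeq starts it had 17 tags. Rpl7a had 69 tags on only 10 loops. Rpl19 had 52 tags on 25 loops, and Rpl10a had 46 on 18. Rpl41, which encodes the smallest ribosomal protein, had 45 tags on 20 loops, Rpl23 had 38 on 17 and Rpl12, a protein at the base of the stalk, had 35 on 12. Rpl27 and Rpl38 had 29 each and Rpl36 had 23 on 8. The score of Rpl23a, 46 tags on 8 loops, rests on the choice of start as well. Its anchor also holds TSSs of Nek8 and Tlcd1, and with a window of 1 kb, with protein-coding transcripts alone or with RefSeq starts Rpl23a had 0 tags. Rpl36 moved the other way, from 23 tags to 69 with RefSeq starts.

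Rpl3, whose product lies near the peptidyl transferase center, differed from the other high scores in that its 14 tags lay on 14 loops of 1 tag each, 12 of them in the second stretch. By contrast, Rpl15 and Rps7 each had 1 loop, of 8 tags. Rpl5 and Rpl11, which bind Mdm2 when ribosome assembly is disturbed, had 8 and 3 tags.

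The genes with no loop were Rpl10l, Rpl22, Rpl22l1, Rpl36a, Rpl39l, Rpl3l, Rplp2, Rps13 and Rps4x. A count of 0 allows up to 3 tags. Rpl10l and Rpl39l are expressed mainly in testis and Rpl3l in heart and skeletal muscle. Of the 6 genes that encode paralogues of other ribosomal proteins, Rpl7l1 had 17 tags, Rps27l had 1 and the other 4 had none. Leaving out these 6 genes, 72 of 77 were looped (93.5%). Of the remaining unlooped genes, Rps4x and Rpl36a are on the X chromosome, where 2 of 4 members were looped and the tags summed to 5, from Rpl10 with 3 and Rpl39 with 2. Among the stalk genes, Rplp1 had 5 tags, Rplp0 had 4 and Rplp2 had none.

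A pyrimidine run of at least 8 bases was present at 28 of 54 looped genes and at 4 of 9 genes without a loop. The promoter of Rplp2 carries a run across its start although it had no loop, and that of Rps13 carries none. These 2 examples were chosen after their values were seen.
Rplp2 (chr7:141447611-141447670, plus strand): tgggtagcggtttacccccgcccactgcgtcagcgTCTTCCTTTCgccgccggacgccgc
Rps13 (chr7:116334171-116334230, minus strand): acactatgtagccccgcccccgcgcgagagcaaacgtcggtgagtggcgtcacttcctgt

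Each of the 18 genes mutated in Diamond-Blackfan anemia that are members had a loop (82.4 to 100), with a median score of 4.5. This is near the share of the whole class. Of all members 89.2% were looped, with a median of 4, and without the paralogues 93.5%, with a median of 5. Over all protein-coding genes the share was 45.8%. Rpl18, Rpl27, Rps28 and Rpl35a had 78, 29, 26 and 15 tags. Rps19, the gene most often mutated in this disease, had 10 tags on 9 loops. Rpl15, Rpl5 and Rps7 had 8 each, and Rps26 had 6. Rpl11, Rps10 and Rps24 had 3 each, Rpl35 and Rps29 had 2 each, and Rpl26, Rps15a and Rps27 had 1 each. The range from 1 to 78 tags spans nearly that of all members. The 30 genes that contain an annotated snoRNA were looped in 28 cases with a median score of 7.5, and the 53 without one in 46 cases with a median of 3.

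Tags were unevenly spread over chromosomes. Chromosome 7 held 14 members with 228 tags (21.6% of the member tags, against 6.75% of all tags in the list). Chromosome 17 held 8 members with 208 tags (19.7% against 8.59%), and chromosome 11 held 7 members with 196 tags (18.5% against 11.1%). Chromosome 9 also held 7 members, all looped, but their tags summed to 26 (2.46% against 2.31%). The 7 most heavily looped genes, from Rpl18 to Rpl10a, had 23 to 64 other protein-coding genes within 500 kb.

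Most ribosomal protein loops rested on little evidence each. Of the 505 loops, 354 had a single tag (70.1%, 66.0 to 73.9), against 77.8% of loops at all protein-coding promoters. The mean was 2.09 tags per loop against 1.72. No single-tag loop had a caller FDR under 0.0118. With an FDR under 0.01, 98 of the 505 loops and 38 looped genes were left, the latter against 17.6% of all protein-coding genes. The 52 loops with at least 4 tags carried 46.1% of the tags and had a median span, measured between anchor midpoints, of 23.6 kb. The 21 loops with at least 10 tags had a median span of 13.6 kb. Single-tag loops began at a span of 115.2 kb, and at 108.8 kb over all loops in the list. The member loop at 115.2 kb lay in the second stretch and had an FDR of 0.0439. In the first stretch, a single-tag loop of Rpl23 over 366.1 kb had an FDR of 0.0497. The edge was not computed for each stretch and need not be the same in both. The list holds only loops that passed the caller's FDR threshold, and the part of that threshold in this edge was not tested. The median span over all 505 loops was 510.6 kb (quartiles 254.9 and 888.5), next to 510.4 kb at all protein-coding promoters. Loops under 100 kb were 45 in number (8.91%) and held 42.0% of the tags. Over all protein-coding promoters these shares were 5.08% and 28.7%. Contact frequency generally falls with distance along a chromosome, so a single-tag loop at long range and a short loop with many tags are not on the same footing.

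**Figure D3:**
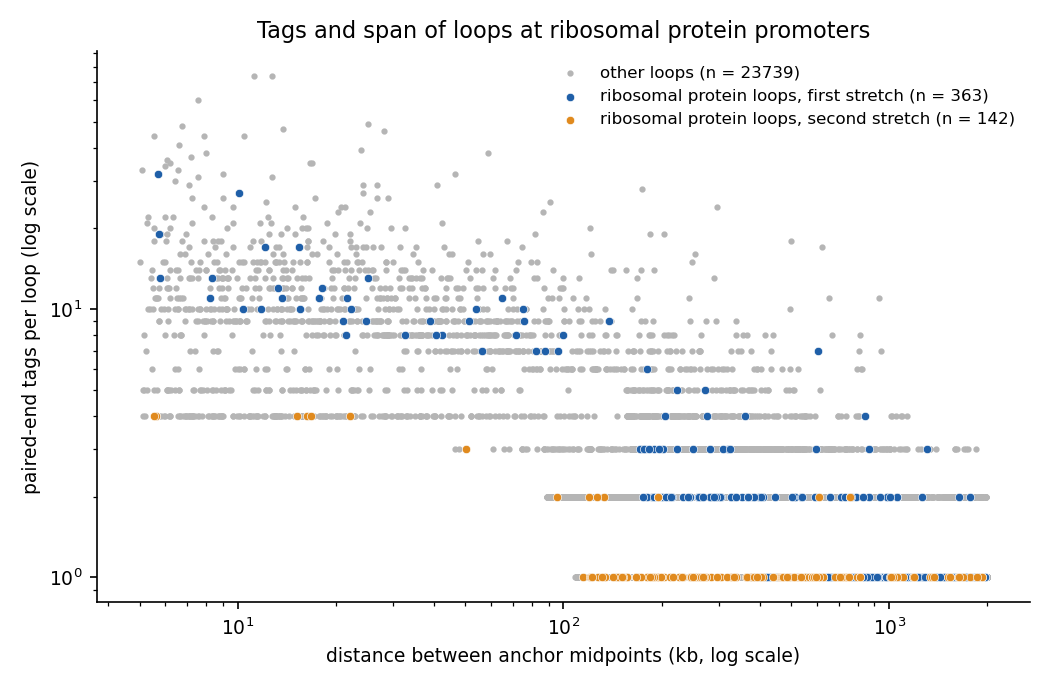
Paired-end tags of each loop against the distance between its anchor midpoints in kb, both on log scales, for 505 ribosomal protein loops colored by the stretch of the list and 23739 other loops in gray. Ribosomal protein loops with at least 10 tags all span at most 74.96 kb. Those with a single tag start at 115.2 kb, with a loop of the second stretch, and single-tag loops over the whole list start at 108.8 kb.

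The strongest loop joined the anchor of Rpl7a (chr2:26909742-26911729, mm10) to that of Surf1 and Surf2 (chr2:26915226-26917614). It had 32 tags over 5.68 kb and a caller FDR of 5.31e-14. Rpl7a is the ribosomal member of the Surfeit cluster, a compact group of unrelated housekeeping genes, and its anchor also holds the start of Med22, a Mediator subunit. Further loops from the same anchor reached Surf6, a nucleolar protein gene, with 11 tags, Surf4 and Stkld1 with 10 tags and Cacfd1 with 8 tags. Of the 10 loops of Rpl7a, 5 had a single tag.

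The anchor counted for Rpl23a reached Rab34, a small GTPase gene, with 27 tags over 10.1 kb, and Traf4 with 11 tags. With RefSeq starts neither loop is counted for Rpl23a. Rpl18 reached the anchor of Dbp, a clock-controlled transcription factor, and Car11 with 17 tags over 12.1 kb, and from a second anchor with 13 tags over 8.33 kb. It also reached Cyth2 with 7 tags. Both anchors of Rpl18 hold a TSS of Sphk2, a sphingosine kinase gene. Rps18, whose anchor also holds Vps52, reached Wdr46 and Pfdn6 with 17 tags over 15.4 kb, Rgl2 with 13 tags over 25.1 kb, and Rxrb, Slc39a7 and H2-Ke6 with 9 tags over 75.7 kb.

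Other strong loops came from anchors that hold no TSS of another protein-coding gene. Rpl27 reached Ifi35 with 13 tags over 5.79 kb, and the same contact recurred in the second stretch with 4 tags. Rpl10a reached Tead3, which encodes a partner of the YAP coactivator, with 11 tags in the first stretch and 4 in the second, and Fance, a Fanconi anemia gene, with 10 and 4. Rpl36 reached Lonp1 and Catsperd with 12 tags, and in the second stretch a neighboring anchor, which also holds the start of 2410015M20Rik, reached them with 4. These 4 contacts are the member contacts seen with at least 4 tags in both stretches. Rpl23 reached Lasp1 with 12 tags and Pcgf2 and Psmb3 with 7. Rpl7l1 reached Bicral with 10 tags over 74.96 kb. Rps16 reached the elongation factor gene Supt5 with 10 tags, Plekhg2 with 8 and Med29 and Paf1 with 8. Rpl19 reached Plxdc1 and Stac2 with 9 tags each and the importin gene Kpnb1 with 4 tags over 839.5 kb. Rps7 reached Adi1 with 8 tags.

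Rpl38, needed for the translation of some Hox messages, reached Sdk2, a cell adhesion gene, with 7 tags over 602.7 kb, and the caller FDR was listed as 0. No other member loop over 300 kb had as many tags. Rpl8 reached Arhgap39, Lrrc24 and C030006K11Rik with 6 tags over 180.7 kb, Rpl17 reached Acaa2 with 5 over 223.1 kb, and Rpl30 reached Mtdh and Laptm4b with 4 tags each.

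Some strong loops came from anchors shared with other genes. Rpl41, with Zc3h10 at its anchor, reached Pa2g4, a growth regulator that binds ribosomes, with 11 tags and the myosin light chain genes Myl6 and Myl6b with 10. Rps28, with Ndufa7 and Kank3, reached Rab11b with 11 tags over 64.6 kb. Rps2, with Ndufb10 and Rnf151, reached Zfp598, a sensor of collided ribosomes, with 9 tags and Msrb1 with 4. Rpl15, with Nkiras1, reached the nuclear receptor gene Nr1d2 with 8. Rpl35a, with Iqcg, reached Lmln with 4. Of 528 pairs of a gene and its loop, 235 (44.5%) had the TSS of another protein-coding gene at the ribosomal anchor. At 48 of the 74 looped genes no anchor was shared in this way.

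Loops between ribosomal protein genes were counted without a comparison to other gene sets, so the count is not read as low or high. Of the 505 loops, 2 joined different members, of which 1 is described. It linked Rps28 (chr17:33823618-33825887) to Rps18 (chr17:33954136-33957569), over 131.1 kb, with 1 tag and a caller FDR of 0.0316. Another loop had Rpl4 at both ends, with 4 tags over 5.63 kb, and so lay along that gene. Some loops reached other genes of the translation machinery, each with 1 or 2 tags, as most member loops had. The share of all loops in the list that reach such genes was not computed. The mitochondrial ribosomal protein genes Mrpl34, Mrpl10, Mrpl45, Mrpl58, Mrps10 and Mrps18b were each reached with 1 tag, and Mrps34 was reached from Rps2 with 2 tags. Among ribosome biogenesis genes, Rps16 reached Fbl, the methyltransferase fibrillarin, with 2 tags in the first stretch and 1 in the second. Rpl7l1 reached Bysl with 2 tags and Polr1c with 1 tag in each stretch.

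**Figure D4:**
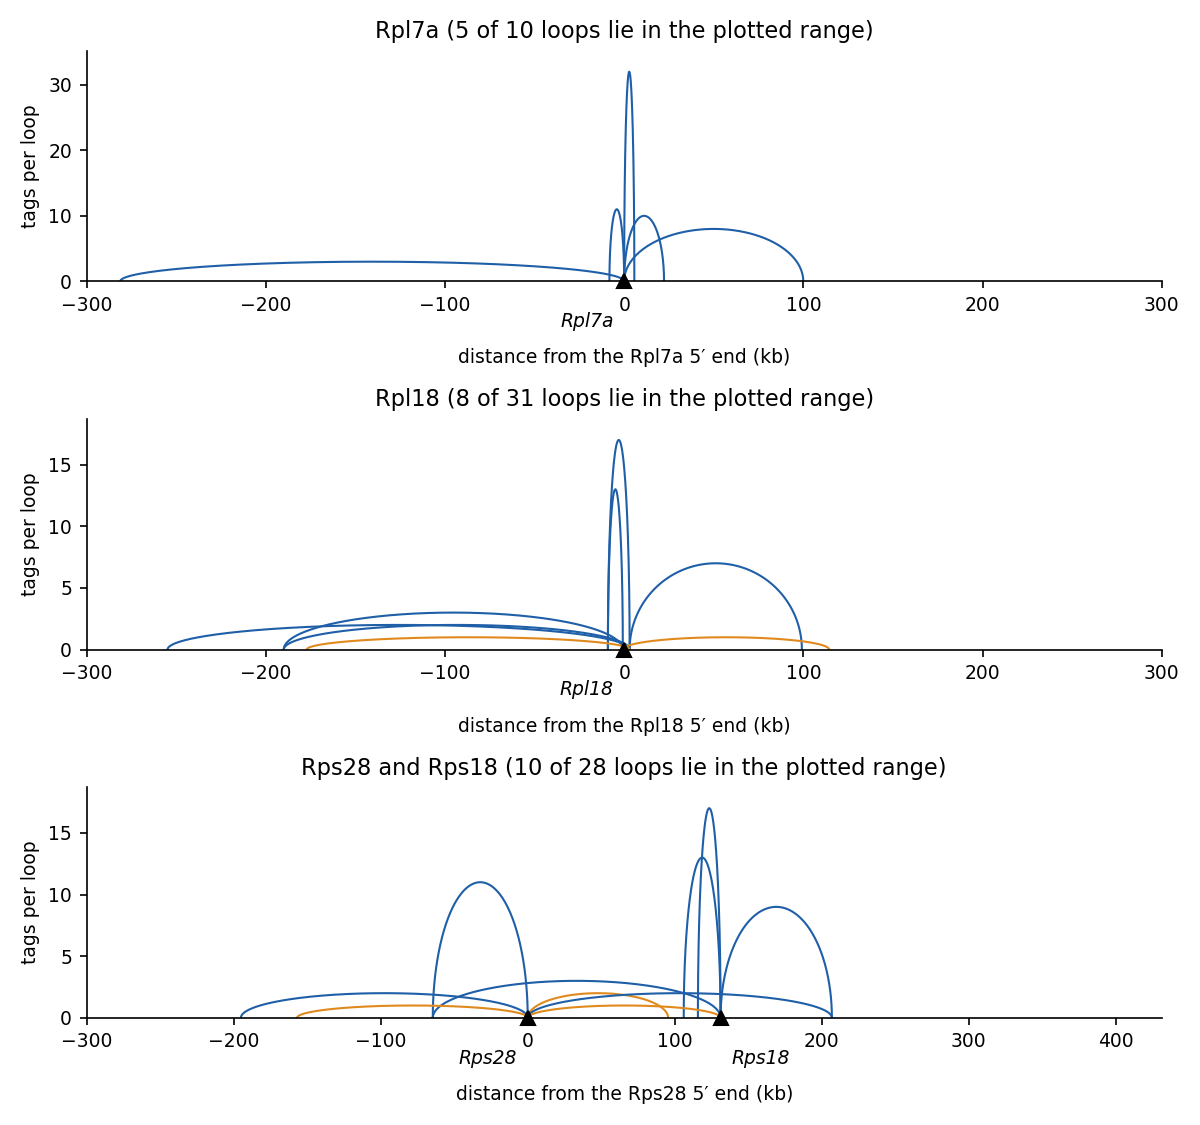
Loops of 3 loci within 300 kb of the marked genes, drawn as arcs between anchor midpoints by distance in kb from the 5′ end of a gene, with the height of an arc giving its tags and the color its stretch (blue first, orange second). The tallest arcs are short, with 32 tags at Rpl7a and 17 at Rpl18 and at Rps18, while the arc from Rps28 to Rps18 has 1.

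The far ends of the loops were mostly promoters. Of 471 distal anchors with distinct bounds, 432 lay within 2 kb of a TSS of another gene (91.7%, 88.9 to 93.9). Of these, 427 were near a protein-coding gene. The share over all protein-coding promoters was 79.1% of 15000 distal anchors. Each anchor counted once, however many loops reached it. The 505 ribosomal protein loops gave 471 anchors, while 22826 loops at all protein-coding promoters gave 15000. The 2 shares are therefore not fully alike, and the part of this counting in their difference was not tested. In the related lists below it was 91.8% for mitochondrial ribosomal protein genes and 90.0% for ribosome biogenesis genes. For translation initiation genes it was 87.8%, and for elongation factor and other translation-linked genes 89.2%. The 39 distal anchors that lay farther away were a median of 8.54 kb from the nearest TSS, and 27 of them overlapped a gene. Their loops had a mean of 1.74 tags and were single-tag loops in 89.7% of cases. Loops to anchors near a TSS had a mean of 2.12 tags and were single-tag loops in 68.5%.

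Only 2 loops to such a far anchor had at least 4 tags, and their sequence is given because no TSS lies within 2 kb of either anchor. Rpl12, whose own anchor also holds a TSS of Lrsam1, had 19 tags over 5.72 kb to an anchor just past its own 3′ end and outside any gene, 2.73 kb from the nearest TSS. Rpl38 had 10 tags over 10.4 kb to an anchor inside Ttyh2, 3.22 kb from the nearest TSS. The anchors were chr2:32966021-32969287 and chr11:114678737-114680366, and the middle 200 bases of each are printed with the recognition site GATC of MboI, the enzyme used for digestion, in capitals.
Rpl12 far anchor (chr2:32967554-32967753, plus strand): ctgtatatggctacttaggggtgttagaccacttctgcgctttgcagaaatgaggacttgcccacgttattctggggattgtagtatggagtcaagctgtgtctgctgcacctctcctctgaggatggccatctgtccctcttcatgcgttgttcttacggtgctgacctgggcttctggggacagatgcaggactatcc
Rpl38 far anchor (chr11:114679452-114679651, plus strand): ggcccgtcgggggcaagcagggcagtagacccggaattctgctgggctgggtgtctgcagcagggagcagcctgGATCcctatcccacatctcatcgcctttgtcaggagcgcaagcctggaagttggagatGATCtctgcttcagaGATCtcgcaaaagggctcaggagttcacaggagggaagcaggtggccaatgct
The whole anchors held 7 and 5 MboI sites and had a GC content of 51.6% and 50.1%. Anchors at ribosomal protein genes held a median of 6 sites over a median width of 2.73 kb, against 5 sites and 2.71 kb at all protein-coding promoters. Both anchors were chosen from the loop values, and whether they carry H3K27ac peaks was not analysed here.

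Related gene lists were looped to a similar extent. Of 78 mitochondrial ribosomal protein genes 66 were looped (84.6%, 75.01 to 90.97), with a median score of 4 and the highest scores at Mrps18b (104), Mrpl38 (48) and Mrpl58 (44). Of 53 ribosome biogenesis genes 47 were looped (88.7%, 77.4 to 94.7), with a median of 4 and the highest scores at Ubtf (93), a factor of ribosomal RNA transcription, Emg1 (43) and Bysl (34). Of 55 translation initiation genes 47 were looped (85.5%, 73.8 to 92.4), with a median of 3, led by Eif3b (39), Eif2b4 (33) and Eif4g1 (33). Of 17 elongation factor and other translation-linked genes 16 were looped (94.1%, 73.0 to 99.0), with a median of 3, led by Naca (70), Hnrnpa1 (36) and Eef1d (22). Fau, which encodes a ribosomal protein fused to a ubiquitin-like domain and is outside the symbol rule, had a score of 29. The intervals of all these lists overlap that of the ribosomal protein genes. A score of at least 20 was reached by 21.7% of ribosomal protein genes, and by 12.8%, 13.2%, 14.5% and 17.6% of the lists in the order given.

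**Figure D5:**
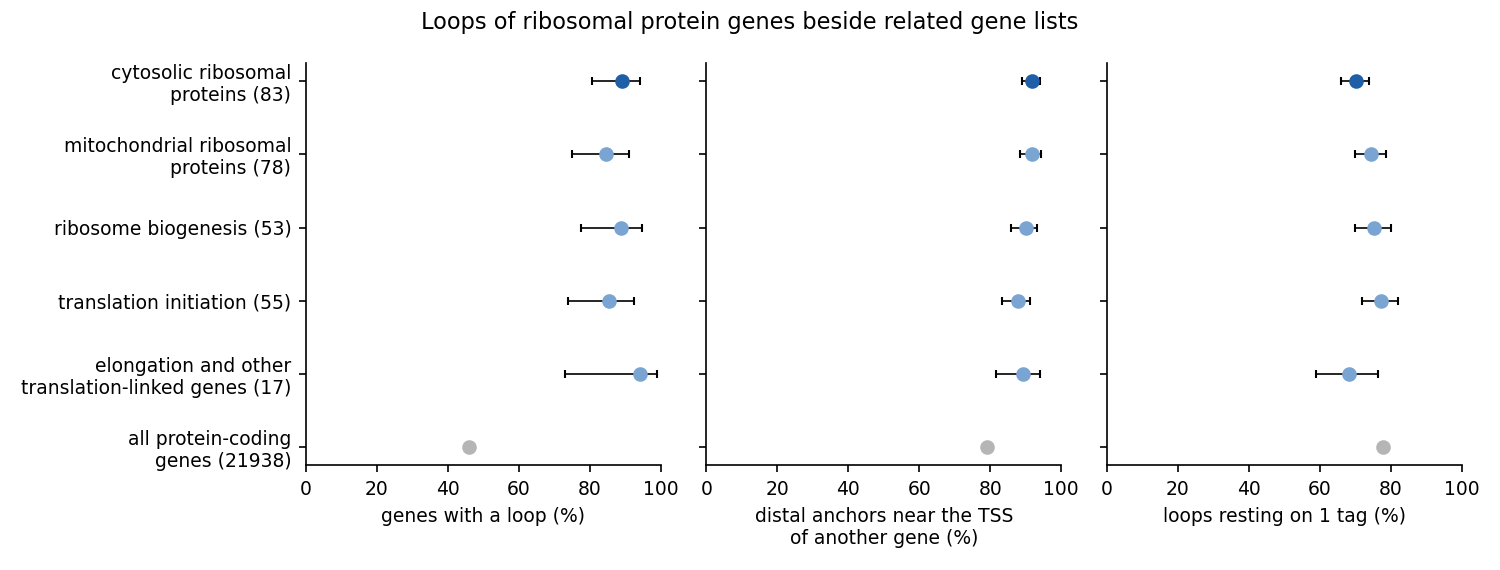
Share of genes with a loop, share of distal anchors within 2 kb of a TSS of another gene and share of loops resting on 1 tag, all in percent with Wilson 95% intervals, for ribosomal protein genes, 4 related lists and all protein-coding genes, whose intervals are narrower than the point. The looped share is 84.6% to 94.1% in the 5 lists and 45.8% over all protein-coding genes.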

How the data were processed

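H3K27ac HiChIP was analysed from 2 hSS2 tumors. HiC-Pro was used by the authors to align the reads to mm10, and hichipper with its Mango step to call loops, which they merged. The deposited count of tags per loop is a whole number that is not normalized. The deposited FDR is a p-value that the loop caller of the authors adjusted for multiple testing, and its largest value was 0.04998. The methods give a threshold of 0.05 and a legend one of 0.01, and the list fits only the former. How the counts were merged, and how reads mapping to several places were treated, which matters for genes with many processed pseudogene copies, is not given in the sources used here. ChIP-seq was not analysed here.

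TSSs were the first bases of all GENCODE vM21 transcripts on GRCm38. The loop score is the sum of counts of loops with an anchor within 2 kb of a TSS. Where promoters share an anchor, its tags count for each gene. In totals each entry of the list was counted once as a loop, and each pair of exact bounds once as an anchor. A contact listed in both stretches was therefore counted as separate loops. Its anchors were counted separately where their bounds differed. The depth of 41574 tags limits the precision of single loops, and 0 was taken to allow 3 tags. No test was made. The members and lists were chosen with earlier results of these data known. Named genes were the 20 highest scores, members without a loop, members with a loop of at least 4 tags or joined to another member, the paralogue and Diamond-Blackfan anemia lists, the 3 highest of each related list, and genes at the far end of the 10 strongest loops. Some items that this rule names are not reported here. Other far-end genes and members were named after their values were seen. Promoter sequences are from RefSeq (GRCm38.p6).

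Alternatives were windows of 1 and 5 kb, an FDR under 0.001, at least 2 tags, other TSS sets, leaving out the paralogues, each stretch alone and, added later, an FDR under 0.01 and promoters alone at their anchor. Tested on simulated data, the assignment placed 486 of 486 loops at the right promoter. The software was matplotlib 3.10.9, scipy 1.17.1, pandas 2.3.3 and numpy 2.4.6 under Python 3.11.15.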

Additional observations from a re-analysis of the deposited data

How the results depend on the processing

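Of 43 alternative values, 24 stayed within set limits of the value given and 19 moved. The limits were 1.5 times for counts and the Wilson interval for shares. For medians they came from the spread over genes or loops, 3 to 8 for the score and 463.3 to 563.3 kb for the span. That spread is between different genes or loops and is not a replicate error. The number of looped genes fell to 45 with at least 2 tags and to 22 with an FDR under 0.001, beside 21.2% and 11.2% of all protein-coding genes. With an FDR under 0.01, a setting added after seeing the data, 38 genes were looped, the median score was 0, the median span was 321.6 kb, 96.8% of distal anchors were near a TSS and 1 loop joined different members. In all other settings 50 to 76 genes were looped, and promoters alone at their anchor, also added then, left 54 genes beside 33.0%. The median score was 0 with an FDR under 0.001, 2 with at least 2 tags, 1 in the second stretch alone and 2 for promoters alone at their anchor. The share of single-tag loops was 62.5% in the first stretch and 89.4% in the second. The median span was 223.4 kb with at least 2 tags, 573.1 kb in the first stretch and 335.0 kb in the second. The share of distal anchors near a TSS was 94.3% with a window of 5 kb and 97.2% with at least 2 tags. With at least 2 tags, 1 loop joined different members. Apart from the settings themselves, the cause was not tested. No paired analysis was possible because the merged list carries no value labeled by tumor, and leaving out a tumor was not possible for the same reason. With most loops at a single tag, differences of a few tags between genes lie within counting error.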
